A study of Bos taurus with 35 samples.

Results

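Heat shock proteins and chaperones are described here in beef muscle over the first 72 h *post-mortem*. The 22 genes, of 27607 in the count table, were those listed as changed at any time point in the supplementary gene table of the study whose symbols begin with the names of the chaperone families (HSPA, HSPB, HSPD, HSPE, HSPH, HSP90, numbered HSF, DNAJ, numbered CCT, numbered BAG or PFDN). They were therefore selected on the same comparisons with 0 h that are given below, so their changes over time are a description and carry no test. The study sampled the *longissimus thoracis* (*LT*), the loin muscle, of 7 British × Continental crossbred beef heifers with slaughter weights of 525 to 635 kg. Cores came from the left side of each carcass at 0 h (45 min after death), 6, 24, 48 and 72 h, while the carcass was held in a cooler, and were sequenced as polyadenylated RNA. All animals were handled alike, the 0 h core served as each animal's own reference, and no unchilled or living muscle was compared. The counted reads per library ranged from 20568418 to 104275821 (median 40133660, 35 libraries), and all 22 genes passed the filter on low counts, as their selection required.

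Chaperones bind unfolded proteins and keep them from aggregating or help them to fold. When unfolded proteins accumulate, heat shock factor HSF1 is released from its chaperone partners and switches on the inducible genes, among them HSPA1A and DNAJB1. HSP70 proteins (HSPA genes) work in cycles of ATP hydrolysis, which J-domain proteins (DNAJ genes) start and nucleotide exchange factors end. Small heat shock proteins (HSPB genes) hold unfolded clients without ATP and are abundant in skeletal muscle, where they associate with the contractile apparatus. Prefoldin (PFDN genes) passes new actin and tubulin chains to the cytosolic chaperonin.

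At 72 h, 15 of the 22 genes were higher than at 0 h and 7 were lower. Among the members, the higher genes held both heat shock factors, all 4 small heat shock proteins, all 3 prefoldin subunits, HSPE1, the inducible HSPA1A and HSPA6, and DNAJB1, DNAJC1 and DNAJC4. Genes of these families that were not listed as changed are no members, so these are not whole families. The lower genes were HSPA4L, HSPA12A, HSPA13, DNAJC9, DNAJC16, DNAJC28 and BAG4. A gene was called where the false discovery rate (FDR) over all 14630 genes tested was below 0.05 and the fold change was above 1.5, in an edgeR quasi-likelihood fit with animal as a block. At 72 h this rule called 9.8% of all tested genes higher and 15.4% lower, but since it also chose the members nothing is read from their count. On the log2 scale the members had a median change of 0.66 at 72 h, beside 0.01 for all genes tested, a difference that the selection also fixes. The members nearest to the threshold were DNAJC4 and HSF1 (0.59 each) and DNAJC9 (-0.60) inside it at 72 h, and DNAJC28 (-0.58), BAG4 (-0.54) and PFDN5 (0.51) outside it at 48 h. Scaled to library size alone, without normalisation for composition, the median of all genes at 72 h was -0.16, 10 members were higher and 7 lower, and the split over all genes was 702 higher to 3238 lower in place of 1434 to 2256. No member was on the other side of 0 at 72 h under that scaling. At 48 h it gave 3 members higher and 3 lower, and 289 genes higher to 1254 lower in place of 433 to 922.

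Calls of the members and of all genes both grew in number with time. No member was called at 6 h, when 0.349% of the tested genes were called higher and 0.185% lower. At 24 h only HSPA1A was called, higher, against 0.725% of all genes higher and 0.95% lower. At 48 h, HSPA1A, HSPA6, DNAJB1 and HSF4 were higher and HSPA4L was lower, against 2.96% and 6.3% of all genes. Without animal as a block, the 24 h call was lost and HSF4 was the only gene left higher at 48 h. The 48 h calls of DNAJB1 and HSF4 were each lost in 2 of the fits that left out 1 animal, without animal 101 or 107 for DNAJB1 (log2 fold changes of 0.634 and 0.664) and without animal 107 or 206 for HSF4 (0.572 and 0.578). The comparisons with 0 h all share the 0 h libraries. At 6 h, 3 members were higher and 1 was lower in 7 of 7 animals, and at 72 h, 14 were higher and 6 lower in 7 of 7. At 72 h, 9 members were higher and 4 lower with no overlap between the 0 h and 72 h libraries, beside 7.9% and 10.1% of all tested genes. Since the members were selected as changed, nothing is read from this count or from those of 7 of 7 animals. The heat map of fitted changes shows every member at each time point.

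**Figure D1:**
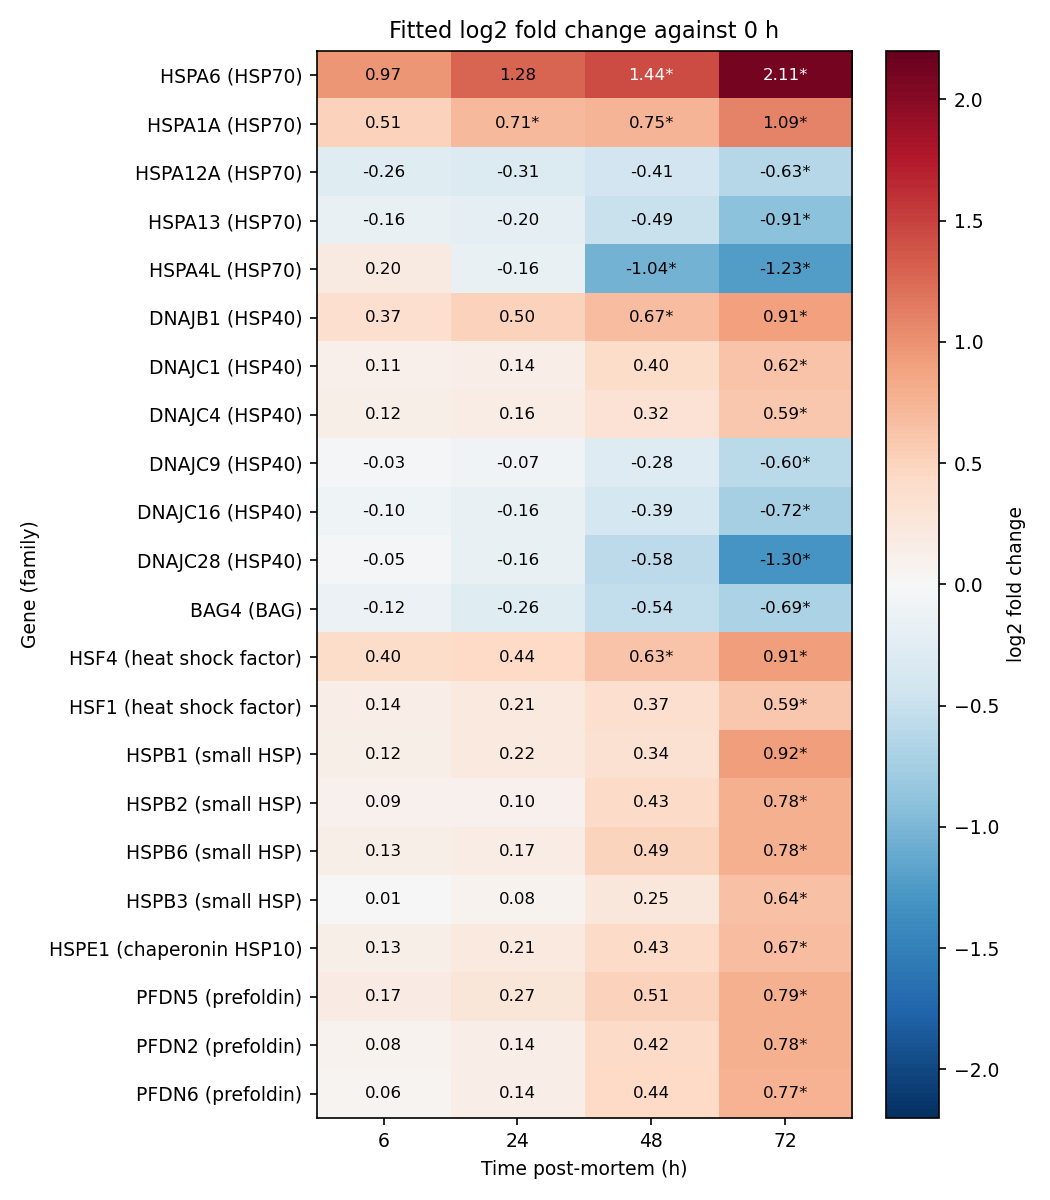
Fitted log2 fold change of each of the 22 genes (rows, with family) at 6, 24, 48 and 72 h against 0 h (columns), from 7 animals per time point. Red is higher and blue lower than 0 h, an asterisk marks a call at FDR below 0.05 and fold change above 1.5, and the values at 72 h run from -1.30 for DNAJC28 to 2.11 for HSPA6.

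Both heat shock factors among the members, of the family that regulates the inducible chaperones, were higher at 72 h. HSF4, best known for its role in the lens, was at a lowest, median and highest level of 22.5, 30.2 and 36.2 CPM (the gene's count scaled to the size of its library) at 0 h and at 45.5, 54.4 and 69.8 CPM at 72 h. The ranges did not overlap at 48 h or at 72 h, and HSF4 was higher than at 0 h in 7 of 7 animals at 6 h already. Its log2 fold change was 0.40 at 6 h and 0.91 at 72 h (SE 0.08 for both). HSF1 went from 95.4, 118 and 131 CPM at 0 h to 151, 171 and 188 CPM at 72 h, again with no overlap. Its log2 fold change of 0.59 at 72 h (SE 0.06) lay just past the threshold of 0.585, and the call was lost without animal 103 (0.576) and without animal 201 (0.559).

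HSPA1A, the main stress-inducible HSP70, rose from 1974 ± 1329 CPM at 0 h to 4156 ± 2561 CPM at 72 h (mean ± SD, n = 7). At 0, 6, 24, 48 and 72 h, its lowest levels were 975, 1086, 1703, 1504 and 1486 CPM, its medians 1715, 2150, 2522, 2572 and 3693 CPM, and its highest levels 4863, 6808, 7345, 7744 and 8211 CPM. Every time point overlapped with 0 h. Within animals HSPA1A was higher than at 0 h in 6 of 7 at 6 h and in 7 of 7 at 24, 48 and 72 h. The log2 fold changes at 6, 24, 48 and 72 h were 0.51, 0.71, 0.75 and 1.09 (SE 0.21 each). The 24 h call was kept in only 1 of 7 fits that each left out 1 animal, the fit without animal 104 (0.69), with values of 0.62 to 0.77 in the other 6.

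HSPA6, an HSP70 that is nearly silent in unstressed human cells, had the widest range of the 22 genes. In the same order of time, its lowest levels were 2.32, 7.25, 12.5, 8.35 and 5.01 CPM, its medians 13.7, 26.8, 35.9, 35.3 and 78.1 CPM, and its highest levels 162, 243, 271, 337 and 313 CPM. The groups overlapped at every time, yet 7 of 7 animals were above their own 0 h level at each later time. The fitted change on the log2 scale was 0.97 at 6 h and 1.28 at 24 h (SE 0.42 each, neither called). It reached 1.44 and 2.11 at 48 and 72 h (SE 0.42 and 0.44). The 24 h change was called in the fit without animal 104 (1.26), but in no other fit that left out 1 animal. HSPA1A and HSPA6 have similar coding sequences, so reads could be exchanged between them in the counting and their separate levels are uncertain. In the RefSeq annotation HSPA1A lies beside HSPA1L, another HSP70 gene, and HSPA6 lies between the Fc receptor genes FCGR3A and FCGR2A.

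DNAJB1, the J-domain partner that activates inducible HSP70, was at 59.9, 128 and 351 CPM at 0 h and at 77.4, 276 and 540 CPM at 72 h. It was higher than at 0 h in 6 of 7 animals at 72 h and lower in animal 103, whose change was -0.34 on the log2 scale. Its fitted log2 changes were 0.37, 0.50, 0.67 and 0.91 at the successive times (SE 0.23 each). The calls of DNAJB1 and HSPA6 at 72 h were lost without the block (log2 fold changes of 0.84 and 1.63).

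**Figure D2:**
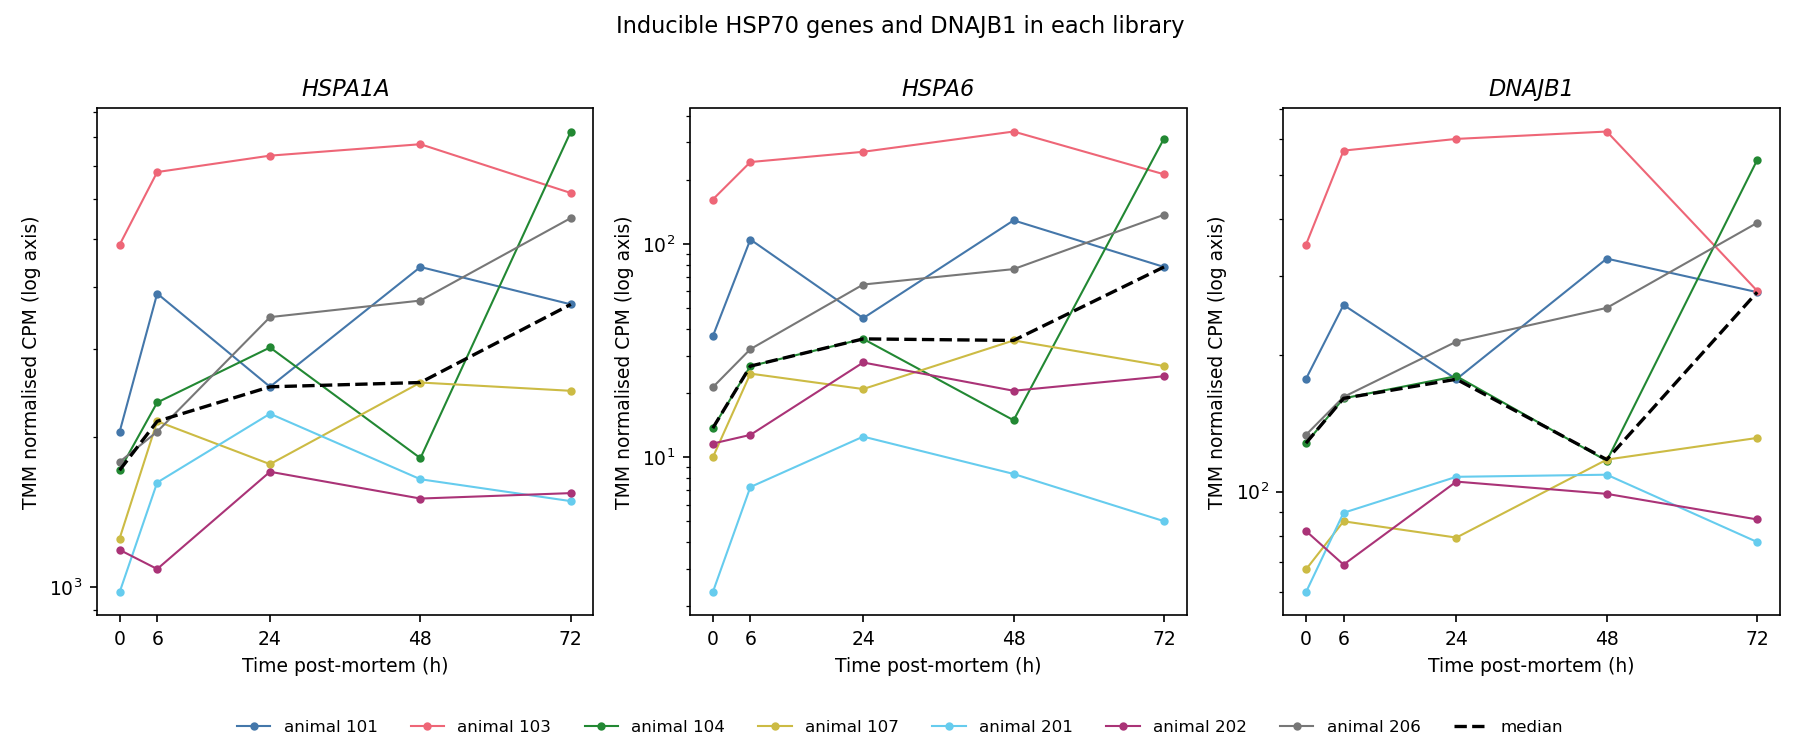
TMM normalised CPM (log axis) of HSPA1A, HSPA6 and DNAJB1 against time *post-mortem* in hours, with a line for each of the 7 animals and a dashed line for the median. Animal 103 was highest for all 3 genes from 0 h to 48 h, and animal 104 was highest at 72 h after a steep rise from 48 h.

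A single animal decided the last step of these 3 genes. Between 48 h and 72 h, HSPA1A went from 1813 to 8211 CPM in animal 104 (4.53-fold), DNAJB1 from 117 to 540 CPM (4.62-fold) and HSPA6 from 14.9 to 313 CPM (21.0-fold). Only 3 of 7 animals were higher at 72 h than at 48 h for each gene. The fitted step from 48 to 72 h was 0.34, 0.68 and 0.24 on the log2 scale for HSPA1A, HSPA6 and DNAJB1, and without animal 104 it was -0.01, -0.14 and -0.15. Against 0 h the 72 h changes without animal 104 were 0.81, 1.36 and 0.61, and all 3 genes were still called higher. The step from 0 to 6 h did not depend on that animal (0.51, 0.97 and 0.37 with it, and 0.52, 0.99 and 0.38 without it).

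The other 12 higher genes are given by the same steps. From 0 to 6 h their log2 changes had a median of 0.12, from 6 to 24 h of 0.06, from 24 to 48 h of 0.22 and from 48 to 72 h of 0.29. The medians of HSPA1A, HSPA6 and DNAJB1 for the same steps were 0.51, 0.20, 0.16 and 0.34. The intervals differ in length, the difference between the gene groups was not tested, and single genes departed from the medians: HSF4 had a 0 to 6 h step of 0.40, beside 0.37 for DNAJB1.

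The 4 small heat shock proteins among the members rose together, with log2 fold changes at 72 h of 0.64 to 0.92. HSPB1 (HSP27) went from 466, 755 and 1000 CPM (lowest, median, highest) at 0 h to 870, 1358 and 2209 CPM at 72 h, and those ranges overlapped. Its change of 0.34 at 48 h and 0.92 at 72 h (SE 0.10 each) left a step of 0.58 between these times, upward in 7 of 7 animals. HSPB6 (HSP20) went from 1126, 1573 and 1736 CPM to 1604, 2621 and 2968 CPM, with overlap from animal 202 alone, and its log2 fold change was 0.78 (SE 0.07). HSPB2, which binds the myotonic dystrophy kinase, went from 65.4, 72.7 and 83.5 CPM to 97.5, 130 and 143 CPM with no overlap, a log2 fold change of 0.78 (SE 0.06). HSPB3, the partner of HSPB2 in muscle, went from 13.5, 16.3 and 18.9 CPM to 21.9, 25.8 and 28.7 CPM, again with no overlap, a log2 fold change of 0.64 (SE 0.06).

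The chaperonin cofactor and the prefoldin subunits changed by similar amounts. HSPE1 (HSP10), the lid of the mitochondrial chaperonin, rose from 67.9, 84.0 and 95.2 CPM at 0 h to 101, 130 and 175 CPM at 72 h. These ranges did not overlap, and neither did those of 0 h and 48 h, and the log2 changes at these times were 0.43 and 0.67 (SE 0.06 each). PFDN5 went from 45.4, 49.0 and 53.9 CPM to 70.5, 87.9 and 96.7 CPM, and was higher in 7 of 7 animals from 6 h on. PFDN2 went from 29.2, 31.4 and 37.5 CPM to 47.3, 53.7 and 62.0 CPM. PFDN6 went from 31.4, 33.8 and 42.3 CPM to 47.1, 57.6 and 74.5 CPM. All 3 prefoldin genes were separated from 0 h at 72 h, with log2 fold changes of 0.77 to 0.79 (SE 0.06 to 0.07), and their 6 h changes of 0.06 to 0.17 were not called. The other 3 prefoldin genes could not be named in the count table.

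**Figure D3:**
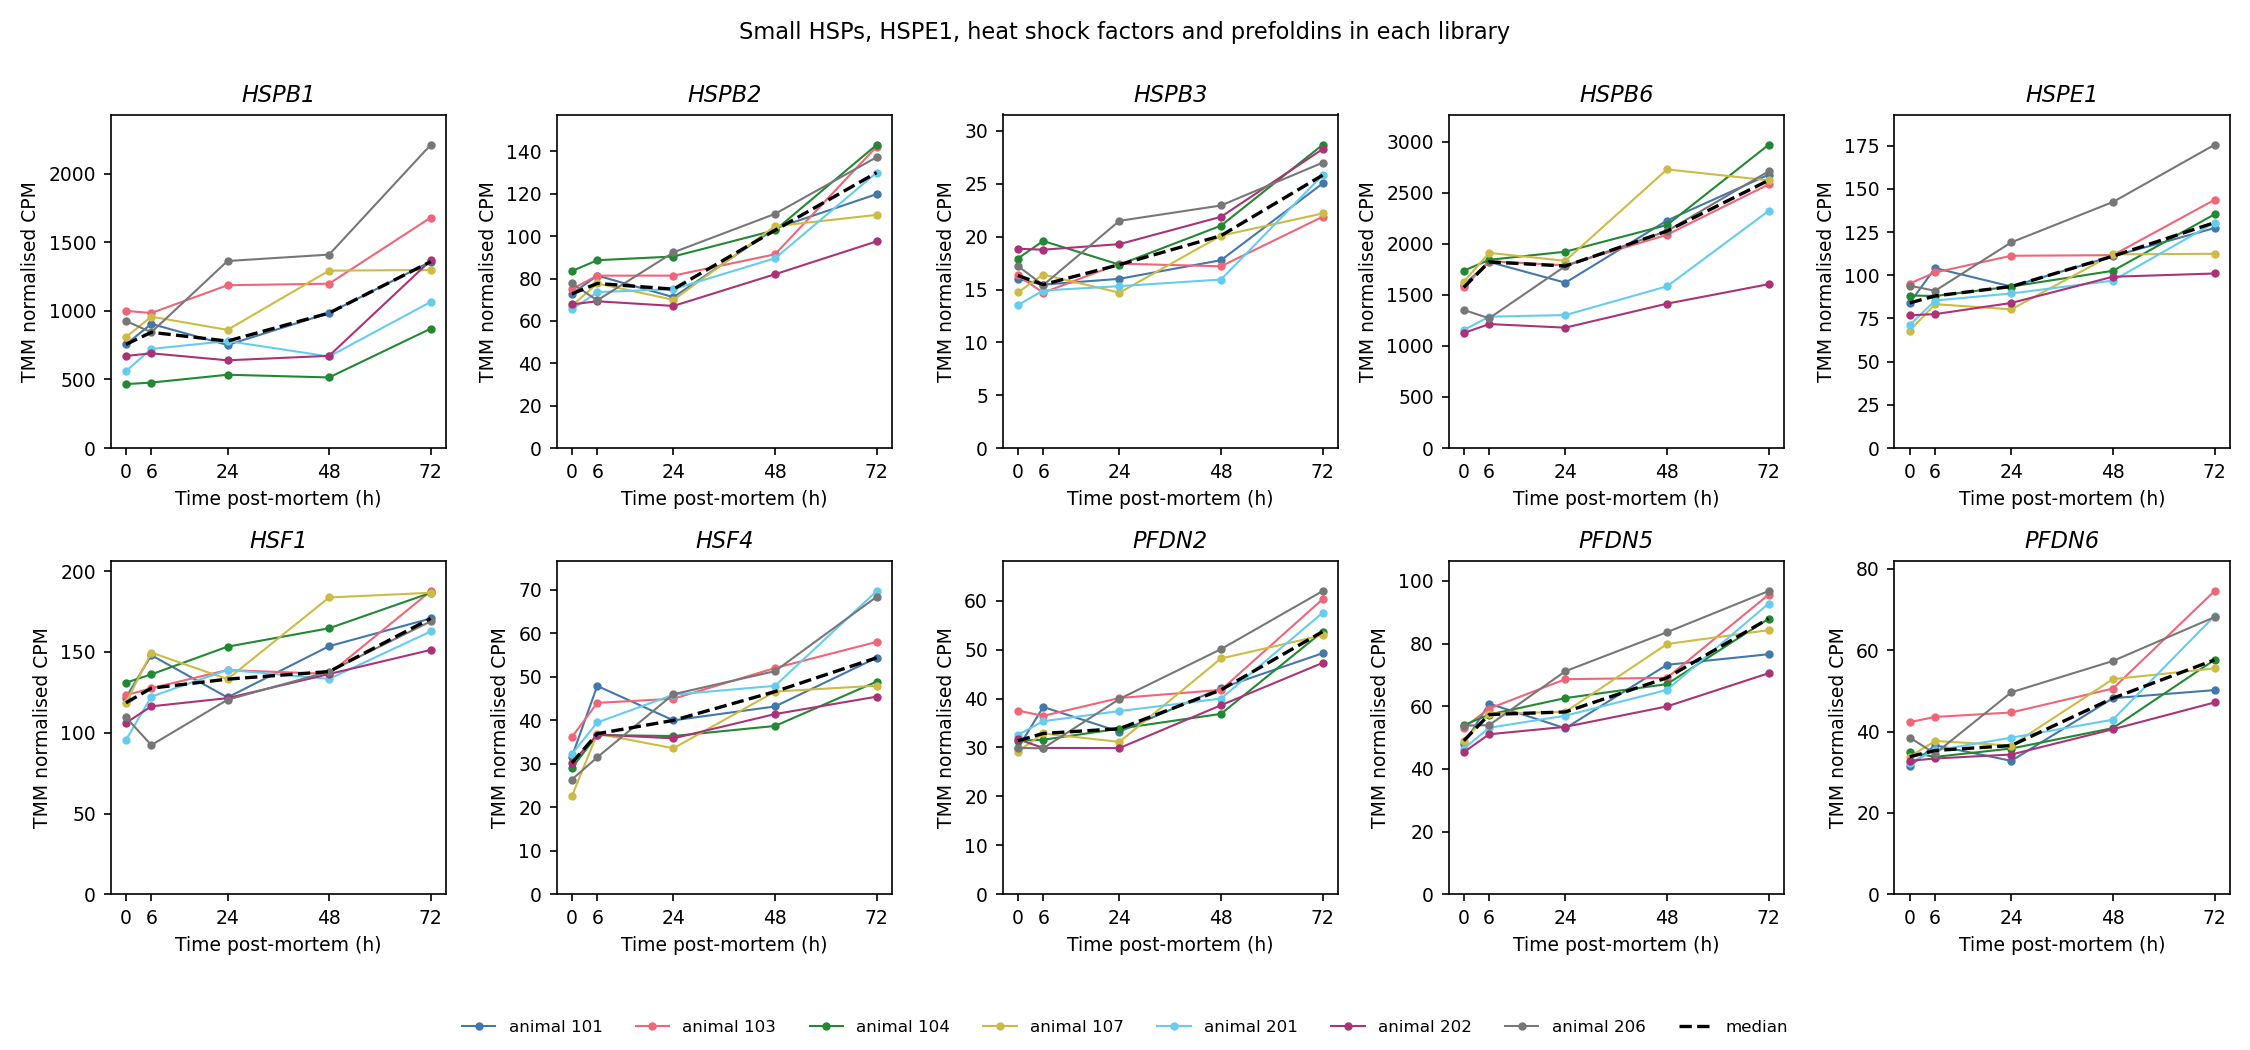
TMM normalised CPM (linear axes from 0) of the 4 small heat shock proteins, HSPE1, HSF1, HSF4 and the 3 prefoldin subunits against time *post-mortem* in hours, with a line for each animal and a dashed median. Each gene was higher at 72 h than at 0 h in 7 of 7 animals, and median HSPE1 was at 84.0 CPM at 0 h and 130 CPM at 72 h.

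The J-domain genes other than DNAJB1 split by direction. DNAJC1, a J protein of the endoplasmic reticulum membrane, went from 7.22, 10.1 and 12.9 CPM at 0 h to 9.23, 15.4 and 21.3 CPM at 72 h, and DNAJC4 from 5.52, 6.61 and 7.84 CPM to 8.82, 9.97 and 12.3 CPM. DNAJC1 overlapped between the time points and DNAJC4 did not, and both were higher in 7 of 7 animals. Their log2 fold changes at 72 h were 0.62 (SE 0.06) and 0.59 (SE 0.09). The call of DNAJC1 was lost without animal 103 (0.577), and that of DNAJC4 without animal 103, 107 or 206 (0.569, 0.552 and 0.543).

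DNAJC28 had the lowest fitted change of the 22 genes. It stood at 16.6, 20.8 and 26.8 CPM at 0 h, 7.88, 15.6 and 20.3 CPM at 48 h and 3.52, 7.69 and 18.8 CPM at 72 h. It was lower than at 0 h in 7 of 7 animals, although the ranges overlapped, and its log2 change went from -0.58 at 48 h, just short of the threshold, to -1.30 at 72 h (SE 0.19). Between animals the change at 72 h ran from -2.92 in animal 206 to -0.15 in animal 202. DNAJC16, a J protein of the endoplasmic reticulum, fell from 16.9, 18.2 and 21.1 CPM to 9.87, 11.1 and 13.0 CPM with no overlap, a log2 fold change of -0.72 (SE 0.07). DNAJC9, which handles histones, was at 3.71, 4.74 and 5.32 CPM at 0 h and 2.13, 2.82 and 4.37 CPM at 72 h. Its change of -0.60 (SE 0.10) was just past the threshold, and the call was lost without animal 103, 104, 107 or 206 (-0.554, -0.581, -0.585 and -0.574).

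Nucleotide exchange factors of HSP70 were among the lower genes. HSPA4L, such a factor of the HSP110 group, was at 0.40, 0.71 and 1.33 CPM at 0 h, 0.42, 0.62 and 1.06 CPM at 24 h, 0.21, 0.28 and 0.52 CPM at 48 h and 0.25, 0.30 and 0.38 CPM at 72 h. Its raw counts were 10 to 83 at 0 h and 6 to 38 at 72 h, so counting error is a large part of these values. The fall came between 24 and 48 h, with a step of -0.88 on the log2 scale (SE 0.21) that went down in 7 of 7 animals, after a 6 h change of 0.20. At 72 h the log2 fold change was -1.23 (SE 0.20), with no overlap. BAG4, another, which also binds the tumour necrosis factor receptor, fell from 5.27, 5.65 and 7.03 CPM to 3.01, 3.49 and 4.20 CPM, a log2 fold change of -0.69 (SE 0.07) with no overlap.

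HSPA13, a membrane-associated HSP70 without the usual substrate domain, went from 9.70, 11.0 and 13.0 CPM at 0 h to 4.40, 5.59 and 7.39 CPM at 72 h. The ranges did not overlap from 48 h on, and HSPA13 changed by -0.91 at 72 h on the log2 scale (SE 0.08). HSPA12A, a distant HSP70 relative, went from 5.32, 8.86 and 13.5 CPM to 3.36, 4.86 and 9.88 CPM. It was lower in 6 of 7 animals and higher in animal 206 (0.16), so the groups overlapped, and the log2 fold change of -0.63 (SE 0.11) was no longer called without animal 201 (-0.557).

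**Figure D4:**
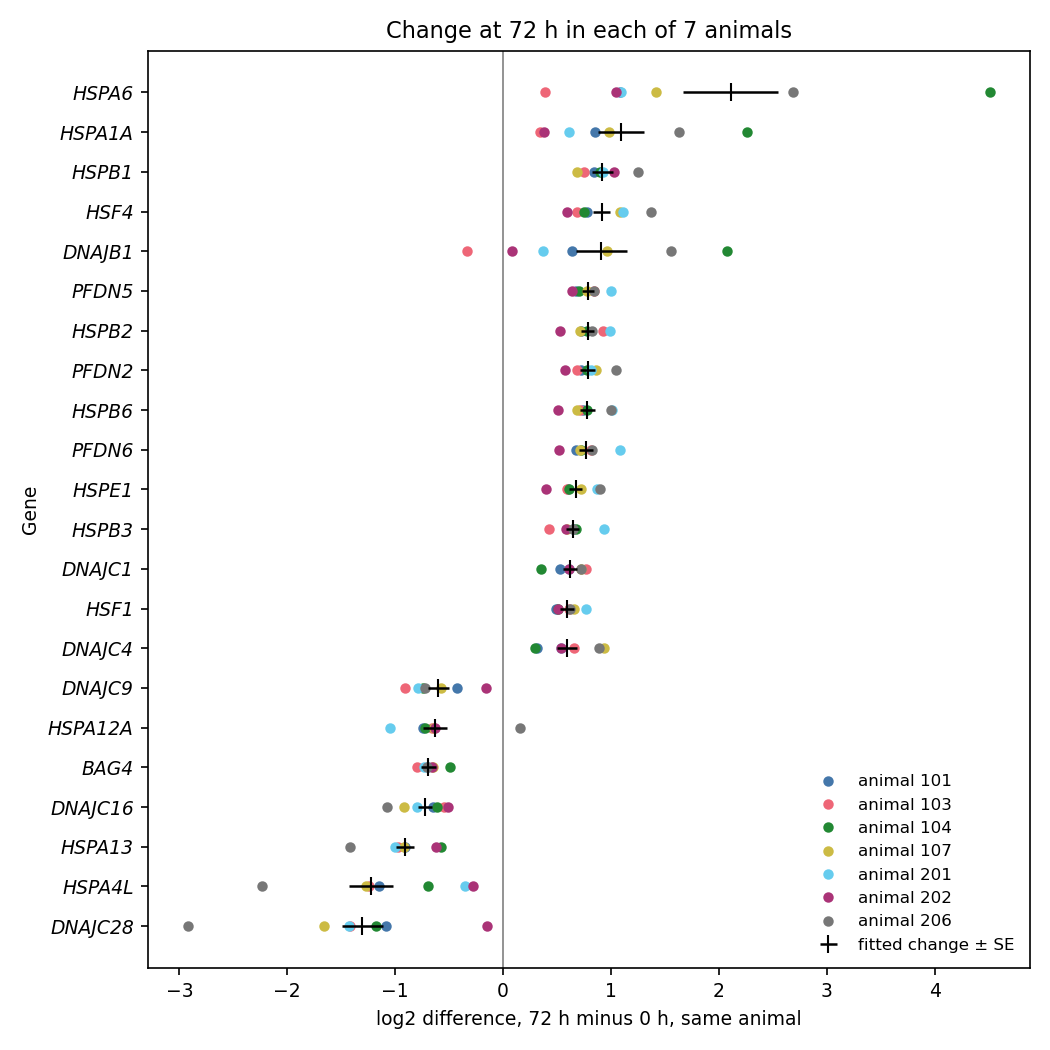
The log2 difference between 72 h and 0 h in the same animal (x axis) for each gene (y axis), with a coloured point for each of 7 animals and a black cross for the fitted change with its SE. HSPA6 is spread from 0.39 to 4.51, PFDN5 from 0.64 to 0.996, and DNAJB1 and HSPA12A are the genes with a point on each side of 0.

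The members differed in how much animals varied at 1 time point. The SD of log2 CPM between the 7 animals was 0.72 to 2.10 for HSPA1A, HSPA6 and DNAJB1 over the 5 time points (median 1.02). It was 0.09 to 0.77 for the other 19 members (median 0.20), and its median over all genes tested was 0.26. Averaged over the time points, 99.8% of the tested genes had a smaller SD than HSPA6, 98.5% than DNAJB1 and 97.1% than HSPA1A. Animal 103 had the highest level of each of these genes at 0, 6, 24 and 48 h, and animal 201 had the lowest HSPA6 at every time.

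The 3 inducible genes moved together across animals. This comparison uses differences between animals within a time point, which the rule that chose the members did not use. It draws on the same libraries, and the trio was picked with earlier results of these data known. Reads could be exchanged between HSPA1A and HSPA6 in the counting, and the part of this in their r was not tested. Pearson's r of log2 CPM over the 7 animals lay between 0.904 and 0.978 for the 15 combinations of gene pair and time point, and Spearman's rho between 0.821 and 1. By a two-sided exact permutation test with Benjamini-Hochberg adjustment over the 15, all passed the threshold, with adjusted p of 0.0015 to 0.0111 for r (unadjusted 0.000198 to 0.0111) and 0.0020 to 0.0341 for rho (unadjusted 0.000397 to 0.0341). The smallest p that 7 animals allow is 0.000198. The 15 combinations reuse the same 7 animals, whose libraries resembled each other across time points, so they are not 15 independent results. The highest r was that of HSPA1A with DNAJB1 at 24 h (0.978) and the lowest that of HSPA1A with HSPA6 at 24 h (0.904).

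Leaving out the 2 animals farthest from the median of the first gene gave r of 0.666 (HSPA6 with DNAJB1 at 6 h) to 0.992, without a test in 5 animals. Animal 103 was among the animals left out at 0, 6, 24 and 48 h. Without animal 103 alone (n = 6), 12 of the 15 combinations passed by Pearson's r, with r from 0.660 to 0.992. HSPA1A with HSPA6 did not pass at 6 h (r = 0.861, adjusted exact permutation p = 0.0580) or at 24 h (0.660, adjusted p = 0.156). Nor did HSPA6 with DNAJB1 at 24 h (0.813, adjusted p = 0.0580). By Spearman's rho, no pair passed at 6 h (rho 0.714 to 0.829, adjusted exact permutation p of 0.0795 to 0.136). HSPA1A with HSPA6 and HSPA6 with DNAJB1 also missed the threshold by rho at 24 h (adjusted p 0.136 and 0.119) and at 48 h (0.0795 each). The animal numbers begin with 1 for 4 animals and with 2 for 3 animals, the meaning of which is not given in the sources used here, and either group is too small for its own correlation.

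**Figure D5:**
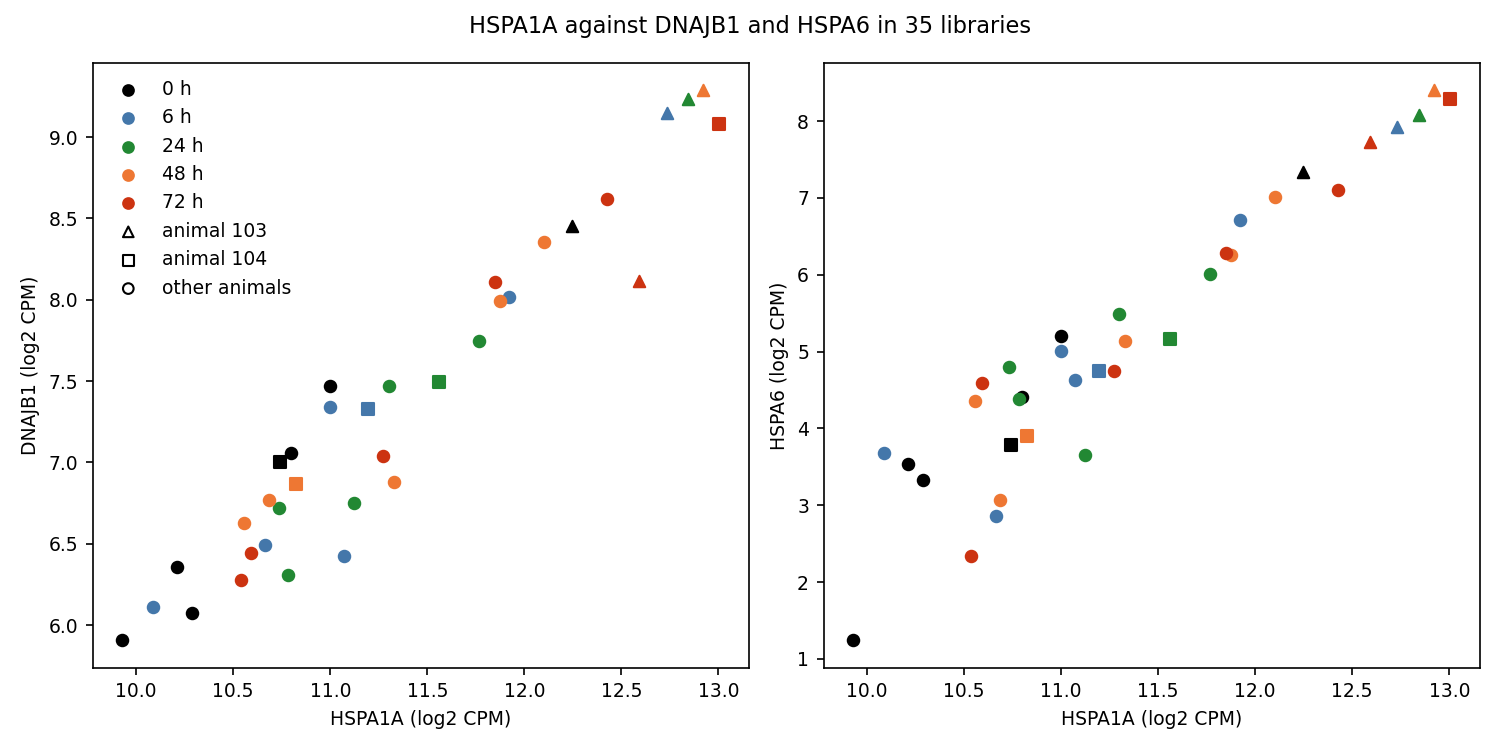
Log2 CPM of DNAJB1 (left) and HSPA6 (right) against HSPA1A in the 35 libraries, coloured by time point, with animal 103 as triangles, animal 104 as squares and the other animals as circles. Libraries with more HSPA1A had more of both other genes at each time, with r of 0.904 to 0.978 over these pairs.

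Genes with a pattern like HSPA1A were ranked by r of log2 CPM, centred at each time point, over the 35 libraries. The libraries share 7 animals, so these values are a description. Of 14629 other genes, 7 had r above 0.9 and 18 above 0.8. DNAJB1 ranked highest (0.97), followed by a SNORD14 gene (0.95), HSPA6 (0.94) and TNFSF14 (0.94), a ligand of the tumour necrosis factor family. Of the next 4, a SNORD14 gene (0.93), the chemokine CXCL3 (0.90) and another SNORD14 gene (0.90) could be named. SNORD14 small nucleolar RNAs are known from introns of HSPA8, the constitutive HSP70 gene, and the RefSeq annotation places 2 small nucleolar RNA genes within HSPA8, but which of these 3 Ensembl genes lie there was not determined. In animal 104 the SNORD14 genes rose 6.35- to 13.3-fold between 48 and 72 h, TNFSF14 5.59-fold and CXCL3 4.15-fold. These rises started from low levels, 0.859 to 1.58 CPM for the SNORD14 genes, 1.03 CPM for TNFSF14 and 4.27 CPM for CXCL3. Animal 103 was highest for all of these genes at 0, 6, 24 and 48 h, and the ranking was not repeated without it. Without the 72 h library of animal 104, a choice made after seeing the data, the r values of the 7 named genes were 0.89 to 0.97. Among the other members HSPE1 was nearest (0.72) and BAG4 farthest (-0.63).

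Of 85 chaperone symbols in a list that includes members but no DNAJ genes, only 19 could be named, since names came from a table of changed genes, and 3 of these were no members. CRYAB (HSPB5), which lies beside HSPB2, went from 795, 883 and 1621 CPM at 0 h to 1268, 1707 and 3400 CPM at 72 h, which was called higher with a log2 change of 0.88 (SE 0.09). CHORDC1, a partner of HSP90, had a log2 fold change of -0.62 (SE 0.07) at 72 h and was called lower, and CLPB, a mitochondrial disaggregase, was lower at 48 h (-0.73) and at 72 h (-0.99, SE 0.12 each). HSP90, the cytosolic chaperonin and the folding enzymes of the endoplasmic reticulum had no named gene and were not analysed here.

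Markers of the cell types in the tissue also moved with time, but they could be named only from the table of changed genes, so the naming largely fixes how many were called, and the markers without a name were not analysed here. Of the muscle fibre markers, 4 of 13 could be named, and their summed level was 28614 to 33844 CPM at 0 h and 42233 to 58949 CPM at 72 h, with CKM, TNNT3 and TNNT1 higher and RYR1 lower. The 17 named adipocyte markers of 20 listed had a sum of 778 to 2337 CPM at 0 h and 321 to 574 CPM at 72 h, with 16 lower, and LEP and ADIG were at 0 in some of the 72 h libraries. The 16 named T and NK cell markers of 22 rose from 13.4 to 22.4 CPM to 24.9 to 35.9 CPM, with 16 called higher, and the 8 named macrophage markers of 11 fell from 48.5 to 160 CPM to 16.4 to 54.7 CPM, with 8 called lower. Both named fibroblast markers of 8 were lower at 72 h, none of 9 endothelial markers could be named, and both named haemoglobin genes of 6 erythroid markers were higher at 48 h only. The part of these shifts in the chaperone changes was not tested, and in bulk tissue fewer cells of a type and less RNA per cell cannot be told apart.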

How the data were processed

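Core samples of the *LT* from 7 heifers at 5 times *post-mortem* (0, 6, 24, 48 and 72 h) were sequenced, giving 35 libraries. Per the submitters' processing notes, the authors trimmed reads with Trimmomatic 0.39, checked them with FastQC 0.11.8, aligned them to the bovine genome ARS-UCD1.2 with STAR 2.7.0f and counted reads per Ensembl gene with featureCounts 1.6.4. The deposited table holds these raw counts for 27607 genes, not normalised. The sources differ on whether strand was used in counting, so reads of overlapping antisense genes may be included.

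Counts were analysed with edgeR 4.0.16 in R 4.3.3. Genes were filtered with filterByExpr (minimum count 10), libraries were scaled by TMM (factors 0.846 to 1.11), and a quasi-likelihood model with animal as a block and time point was fitted to all 35 libraries. P-values of 14630 genes were adjusted by Benjamini-Hochberg, and genes with FDR below 0.05 and fold change above 1.5 were called. SEs were taken from the fitted change and its F statistic. CPM values are TMM normalised, and log2 CPM used a prior count of 2. Same-numbered libraries came from the same animal, and their deviations from the time means correlated (median r 0.58 over 70 pairs, all above 0.1, beside -0.11 over 420 other pairs). The count test was checked on simulated data.

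The 22 members, the gene lists and the tests were chosen with earlier results of these data known, and members carry no test over time. The text names all members, the called genes of the listed chaperone families, and the genes most like HSPA1A. Symbols came only from the study's supplementary gene table (3106 of 3640 IDs had one), a shortened copy that lists changed genes, so whole chaperone families could not be counted. RefSeq gene names served for neighbouring genes only, and neither sequences nor gene lengths were used, so levels are not compared between genes. Sequencing runs are not named in the labels. The calls rest on the spread that is left after each animal's own level is removed, with 1 library per animal and time point. The permutation p-values measure association across animals. Correlations used scipy 1.17.1 with exact enumeration of 5040 permutations. Alternatives were DESeq2 1.42.0, limma 3.58.1 voom, other scalings and filters, no block, other thresholds, and leaving out each animal. No column of the table was left unmapped.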

Additional observations from a re-analysis of the deposited data

Results flagged for a closer look

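Among 110 groups of 7 libraries (22 genes at 5 time points), 2 held a library far from the others by Dixon's test at the 95% level (critical value 0.568). Chance flags about 1 in 20 groups, which would be 5.5 of 110. HSPB6 at 72 h was lowest in animal 202 with 1604 CPM, and the next animal, 201, had 2321 CPM (gap over range 0.600). HSPE1 at 48 h was highest in animal 206 with 142 CPM, and the next animal, 107, had 112 CPM (gap over range 0.622).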

How the results depend on the processing

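The members called higher at 72 h numbered 12 to 15 and those called lower 6 to 7 over the 7 fits that each lacked 1 animal. The same fits gave 2 to 4 higher and 1 to 2 lower at 48 h, 0 to 2 higher and 0 lower at 24 h, and 0 in either direction at 6 h. Over all genes tested, these fits called 1286 to 1556 higher and 2145 to 2491 lower at 72 h. At 48 h they called 333 to 485 of all genes higher and 732 to 1100 lower. Without the animal block, 0 members were called at 24 h, 1 higher and 1 lower at 48 h, and 13 higher and 7 lower at 72 h. Of all 14630 genes tested, that fit called 22 higher and 79 lower at 24 h, and 296 and 682 at 48 h. At 72 h it called 1276 higher and 2053 lower. DESeq2 called 2 members higher at 24 h and 2 lower at 48 h, beside 117 and 896 of all genes. A test against the fold threshold itself (glmTreat) called 0 members at 24 h and 0 higher or lower at 48 h, and 9 higher and 4 lower at 72 h. With no fold threshold, 187 of all genes were called higher and 131 lower at 6 h, and 596 and 386 at 24 h. At 48 h it was 3207 higher and 3438 lower of 14630. Of the members, 1 was then called higher at 6 h, 5 higher and 1 lower at 24 h, and 15 higher and 7 lower at 48 h. At 48 h, 3 were lower with library size scaling, 2 with no filter on low counts, where DNAJC28 was added, and 0 with a filter at 1 CPM, which drops HSPA4L from the test. In the same order, 1254 of 14630, 1058 of 22206 and 710 of 12569 genes tested were lower. No called change reversed under any of these alternatives.

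Of the fitted changes against 0 h that were not called, 3 changed sign in some fits without 1 animal: HSPB3 and DNAJC9 at 6 h, and HSPA4L at 24 h without animal 206 (0.03). Small steps between 6 and 24 h in 9 members also changed sign in some of these fits. HSPA1A between 24 and 48 h had a step of 0.04, which was -0.05 with library size scaling, -0.08 without animal 101 and -0.03 without animal 107, and the HSPA6 step of 0.16 was -0.06 without animal 101. Without animal 103, 3 of the 15 Pearson correlations missed the threshold, with r of 0.861 and 0.660 for HSPA1A with HSPA6 at 6 and 24 h and 0.813 for HSPA6 with DNAJB1 at 24 h, an alternative chosen after seeing the data. By Spearman's rho more pairs missed it without that animal, among them every pair at 6 h. All 15 correlations between the inducible genes passed with library size scaling (r 0.912 to 0.979) and on CPM without logs (0.906 to 0.993). The planned comparison of whole chaperone families and the planned look at sequence features were not run, for want of gene names and sequences of this annotation. Depth limits HSPA4L most, with as few as 5 reads in a library.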
